A study of Mus musculus with 3 samples.

Results

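The 10 genes followed here are used to sort, label, or trace skeletal stem and progenitor cells and were read cell by cell in the callus of healing mouse femurs. They were the surface markers Ly6a (SCA1), Cd34, Thy1 (CD90), Cd200, Eng (CD105), Nt5e (CD73), and Lepr (leptin receptor), the transcription factor Prrx1, the protease gene Ctsk, and the membrane protein gene Lrrc15. Members were taken by name from the 32285 gene identifiers of the deposited matrices, and all 10 were found. Their detection was compared between cells that carried much RNA of Aspn, Cnmd, Col10a1, Ifitm5, or Rgs5, and between days.

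Callus was taken from untreated C57BL/6 mice at 7, 10, and 14 days after femoral fracture, and 1 droplet library was made per day. No uninjured bone was part of the comparison, and the mice behind each library are not counted in the sources used here. The callus was cleaned of marrow, digested with collagenase, and sorted to leave out CD45+, CD31+, and TER119+ cells, that is, hematopoietic, endothelial, and erythroid cells. With 1 library per day there is no replicate error, so all intervals given are 95% intervals of counting error only, exact binomial for shares and ratios and exact Poisson for levels, and a difference between days is a difference between libraries.

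As background, skeletal stem and progenitor cells have no single marker and are recognized by panels. In mouse, Ly6a with Pdgfra marks a stromal progenitor of marrow and of the fibrous outer layer of the periosteum, and Cd34 is found on fibroblastic stroma as well as on endothelium. One sorting scheme defines a skeletal stem cell as Itgav+ Cd200+ without Thy1, Enpep (6C3), and Eng, with downstream progenitors that lose Cd200 or gain Eng. Lepr is the standard marker of adult marrow stroma, Prrx1 marks limb mesenchyme and is used as a Cre driver for it, Ctsk is the collagen-cleaving protease of osteoclasts whose Cre also labels periosteal stem cells, and Lrrc15 is a membrane protein of matrix-producing myofibroblasts.

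A cell entered the analysis when it had 500 to 5000 genes, at most 10% mitochondrial and 5% hemoglobin UMIs (unique molecular identifiers, each standing for 1 captured transcript), no UMI of Ptprc (the gene of CD45), and at least 5000 UMIs. This left 233, 6251, and 8843 cells from the 3 successive days. Each cell was thinned at random to 5000 UMIs, so that a share of cells with a UMI did not depend on depth. Cells were called Aspn-, Cnmd-, Col10a1-, or Rgs5-high with at least 10 UMIs of that gene among the 5000, and Ifitm5-high with at least 5. The limit cut through a continuous range, since at day 14 278 cells lay within the first 2 UMIs over the Aspn limit and 312 within the 2 UMIs under it. Cells high for more than 1 of the 5 genes, 325 at day 10 and 270 at day 14, were in no group. Those high for none of the 5, 1808 at day 10 and 2469 at day 14, were also in no group.

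The Aspn-high group, like fibroblastic osteoprogenitors by its markers, held 1294 cells at day 10 and 2900 at day 14. Cnmd-high cells, which were chondrocyte-like, numbered 2134 and 1223, and Col10a1-high cells, hypertrophic chondrocyte-like, 553 and 1595. Ifitm5-high cells, osteoblast-like, numbered 75 and 236, and Rgs5-high cells, pericyte-like, 62 and 150. Each group carried the most summed RNA of its own list of 5 markers at both days, for example 23134 and 21106 CPM (UMIs of a gene per 1000000 UMIs) of the Aspn-high list against at most 9332 in any other group. Within a group, its own list was not always the largest. Col10a1-high cells held 34841 and 20932 CPM of the Ifitm5-high list, against 32940 and 39612 of their own. Rgs5-high cells held 9332 and 6058 CPM of the Aspn-high list, against 1502 and 1406 of their own. In the other groups the own list was the largest on both days. One marker went against its list, because Cspg4, listed for pericytes, stood at 366 and 317 CPM in Cnmd-high and at 300 and 198 CPM in Rgs5-high cells. The other 4 pericyte markers, Mcam, Notch3, Kcnj8, and Abcc9, were each at 161 CPM or more in Rgs5-high and at 5.48 CPM or less elsewhere.

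The library labelled day 7 stood apart. Of its cells within the limits, 93.6% had a Ptprc UMI, against 0.0910% at day 10 and 1.76% at day 14, although all 3 had been sorted as CD45-. It yielded 14 Aspn-high, 44 Cnmd-high, and 8 Col10a1-high cells and none of the other 2 groups, so its values are given as counts and the comparisons rest on days 10 and 14. Libraries shared 29 barcodes (days 7 and 10), 42 (days 7 and 14), and 35 (days 10 and 14), of which 16 of the last were among the cells analysed. Without those cells no detection share or log2 ratio moved beyond its interval. Total UMIs per library ran from 113127788 to 195661880, and the median UMIs of the 5 groups at days 10 and 14 ran from 10243 to 21000 before thinning.

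RNA free in the droplets gives UMIs in cells that do not make a transcript. As a background for it, S100a8-high Ptprc-positive cells, which are neutrophil-like and should lack most of the 10 genes, were read in the same way. At day 7, 2972 such cells (median 8537 UMIs) showed each of 9 genes in 0.774% of cells or fewer, and Nt5e in 15.2%. At day 14, 106 such cells (median 11468.5 UMIs) showed far more, from 0.943% for Lepr to 24.5% for Nt5e, and they also held 634 CPM of Aspn and 1681 CPM of Col10a1. Day 10 had 2 such cells and so gives no background of its own. In the day 14 S100a8-high cells the Col10a1-high marker list summed to 12005 CPM. It summed to 15054 CPM in all Ptprc-negative cells of day 14 and to 107 CPM in the S100a8-high cells of day 7. Some groups fell below the S100a8-high shares, as did Col10a1-high cells at day 14 with Thy1 in 1.00%. How far these shares come from free RNA was not tested, so they are no measured floor. Shares at day 14 that did not clear them are read below only as not above S100a8-high cells.

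**Figure D1:**
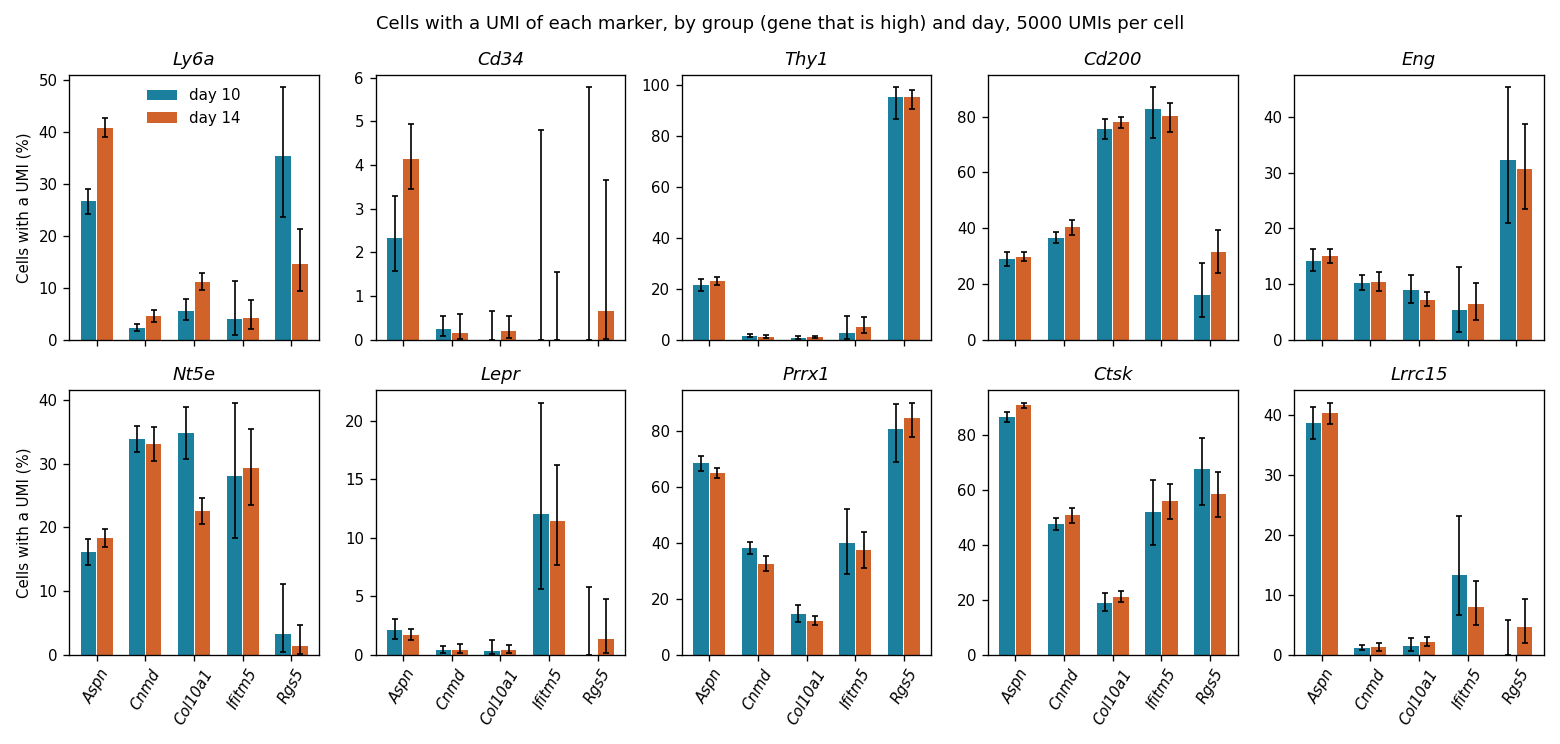
Share of cells with a UMI (percent, y axis) of each of the 10 markers in cells high for Aspn, Cnmd, Col10a1, Ifitm5, or Rgs5 (x axis) at day 10 and day 14, 5000 UMIs per cell, with error bars for the 95% counting interval and a separate y scale per gene. Thy1 stands at 95.2% and 95.3% in Rgs5-high cells, Cd200 at 75.6% or more in Col10a1- and Ifitm5-high cells, and Lrrc15 at 38.6% and 40.2% in Aspn-high cells.

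Ly6a (ENSMUSG00000075602, chr15:74994877-74998031, minus strand, GRCm38) encodes SCA1, the surface antigen used to sort stromal and hematopoietic progenitors. In Aspn-high cells it had a UMI in 26.7% of cells at day 10 (interval 24.3% to 29.2%, 345 of 1294) and in 40.9% at day 14 (39.1% to 42.7%, 1185 of 2900). Before thinning the shares were 40.3% and 57.4%. Rgs5-high cells had it in 35.5% at day 10 (23.7% to 48.7%) and in 14.7% at day 14 (9.43% to 21.4%). Aspn-high and Rgs5-high cells were thus not apart at day 10, and only the Aspn-high share at day 14 cleared the S100a8-high share of 6.60% (2.70% to 13.1%). Cnmd-high cells had 2.30% and 4.50%, Col10a1-high cells 5.61% and 11.2%, and Ifitm5-high cells 4.0% and 4.24%, none of which at day 14 was clear above S100a8-high cells. At day 7, 24 of 233 Ptprc-negative cells had a Ly6a UMI.

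Cd34 (ENSMUSG00000016494, chr1:194938819-194961279, plus strand), a sialomucin of stroma, endothelium, and blood progenitors, was sparse. It had a UMI in 30 of 1294 Aspn-high cells at day 10 (2.32%, interval 1.57% to 3.29%) and in 120 of 2900 at day 14 (4.14%, 3.44% to 4.93%), and before thinning in 5.10% and 9.0%. In the other groups it was seen in 5 Cnmd-high cells at day 10, in 2 Cnmd-high, 3 Col10a1-high, and 1 Rgs5-high cells at day 14, and in none of the rest. For the 62 Rgs5-high cells of day 10, 0 cells has an interval that reaches 5.78%. The Aspn-high share was the highest on both days and was apart from Cnmd-high and Col10a1-high cells, but at day 14 the S100a8-high share of 1.89% had an interval of 0.229% to 6.65% that contains it. Of the 5 endothelial markers, Cdh5, Kdr, Emcn, and Tek were each at 0.25 CPM or less in Aspn-high cells and Pecam1 was at 0.95 and 3.33 CPM.

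Thy1 (ENSMUSG00000032011, chr9:44043384-44048579, plus strand), a GPI-anchored protein of fibroblasts, pericytes, and thymocytes, was found in nearly every Rgs5-high cell and was rare in Cnmd-high and Col10a1-high cells. It had a UMI in 59 of 62 Rgs5-high cells at day 10 (95.2%, interval 86.5% to 99.0%) and in 143 of 150 at day 14 (95.3%, 90.6% to 98.1%). Aspn-high cells followed at 21.4% (19.2% to 23.7%) and 23.1% (21.6% to 24.7%). Cnmd-high cells had 1.55% and 1.23%, Col10a1-high cells 0.542% and 1.00%, and Ifitm5-high cells 2.67% and 5.08%. At day 14 none of these cleared the 9.43% of S100a8-high cells. Summed over cells, the Thy1 level was 946 and 927 CPM in Rgs5-high cells and 65.0 and 62.6 CPM in Aspn-high cells, a difference of 14.6-fold at day 10 and 14.8-fold at day 14.

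Eng (ENSMUSG00000026814, chr2:32646595-32682669, plus strand) encodes endoglin, a TGF-β co-receptor of endothelium and stromal cells that marks committed progenitors in the sorting scheme above. Its order matched that of Thy1 at the top, with 32.3% (interval 20.9% to 45.3%) and 30.7% (23.4% to 38.7%) of Rgs5-high cells and 14.2% (12.4% to 16.2%) and 15.0% (13.8% to 16.4%) of Aspn-high cells. Cnmd-high cells followed at 10.2% and 10.4%, Col10a1-high cells at 8.86% and 7.21%, and Ifitm5-high cells at 5.33% and 6.36%. Among these 3, Col10a1-high and Ifitm5-high cells did not differ beyond counting error on either day, and at day 14 neither cleared the S100a8-high share of 2.83% (0.588% to 8.05%). Of the endothelial markers, Emcn was found in Rgs5-high cells at 53.5 and 30.2 CPM, Pecam1 at 3.57 and 8.71 CPM, and Cdh5, Kdr, and Tek had no UMI in them on either day.

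Cd200 (ENSMUSG00000022661, chr16:45382135-45409053, minus strand), an inhibitory ligand of the immunoglobulin superfamily that is required on the stem cell of the sorting scheme, was ordered the other way round. Ifitm5-high cells had it in 82.7% (interval 72.2% to 90.4%, 62 of 75) and 80.1% (74.4% to 85.0%, 189 of 236). Col10a1-high cells, with 75.6% (71.8% to 79.1%) and 77.9% (75.8% to 79.9%), did not differ from them beyond counting error. Cnmd-high cells had 36.6% and 40.2%, and Aspn-high cells 29.1% and 29.7%. The Rgs5-high share was 16.1% (8.02% to 27.7%) at day 10 and 31.3% (24.0% to 39.4%) at day 14. In S100a8-high cells the day 14 share was 17% (10.4% to 25.5%), which the Rgs5-high share did not clear. The summed level in Aspn-high cells was below that in Col10a1-high cells by 2.15 on the log2 scale at day 10 (85.7 against 381 CPM), and the same comparison at day 14 gave 88.2 against 366 CPM.

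Nt5e (ENSMUSG00000032420, chr9:88327197-88372092, plus strand) encodes CD73, the ectoenzyme that makes adenosine from AMP and part of the human stromal cell panel. It had a UMI in 34.7% (interval 30.8% to 38.9%) of Col10a1-high cells at day 10 and 22.5% (20.5% to 24.6%) at day 14, and in 33.8% (31.8% to 35.8%) and 33.0% (30.4% to 35.7%) of Cnmd-high cells. Ifitm5-high cells had 28.0% and 29.2%, and Aspn-high cells 16.1% and 18.3%. Rgs5-high cells had the fewest, 2 of 62 and 2 of 150. Of the 10 genes it was the one that the neutrophil-like cells held most often, at 15.2% at day 7 and 24.5% (16.7% to 33.8%) at day 14, and no group at day 14 lay clear above the latter. At day 7 these cells held 29.3 CPM of Nt5e and 3.99 CPM of Cd200, while all Ptprc-negative cells held 297 and 268 CPM. Whether neutrophil-like cells make Nt5e themselves was not tested, so their share is not taken as a background for it. At day 7 Nt5e was in 25 of 44 Cnmd-high cells, with a summed level of 234 CPM against 109 CPM at day 10, the only one of 5 members with at least 10 CPM that differed 2-fold between these days, where 6.12% of all genes were 2-fold higher at day 7 and 3.28% lower.

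Lepr (ENSMUSG00000057722, chr4:101717404-101815352, plus strand) reached its highest share in Ifitm5-high cells. It had a UMI in 9 of 75 Ifitm5-high cells at day 10 (12.0%, interval 5.64% to 21.6%) and in 27 of 236 at day 14 (11.4%, 7.68% to 16.2%). Aspn-high cells had 2.09% and 1.69%, and the Cnmd-high, Col10a1-high, and Rgs5-high shares were all at 1.33% or less. The S100a8-high share at day 14 was 0.943% (0.0239% to 5.14%). Of the markers of marrow adipogenic reticular cells, the stroma for which Lepr is best known, Adipoq had no UMI in Ifitm5-high cells on either day. Cxcl12 stood there at 4.19 and 6.08 CPM, Ebf3 at 2.10 and 0.487, Kitl at 10.5 and 8.27, and Foxc1 at 36.4 and 30.4 CPM. Aspn-high cells held more Cxcl12, 97.9 and 127 CPM.

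Prrx1 (ENSMUSG00000026586, chr1:163245119-163313710, minus strand) was found in 80.6% (interval 68.6% to 89.6%) and 84.7% (77.9% to 90.0%) of Rgs5-high cells and in 68.3% (65.7% to 70.8%) and 64.9% (63.1% to 66.6%) of Aspn-high cells. The summed level was 441 and 451 CPM in the former and 299 and 238 CPM in the latter. Ifitm5-high cells had it in 40.0% and 37.3%, Cnmd-high cells in 38.0% and 32.4%, and Col10a1-high cells in 14.5% and 12.0%. The Col10a1-high share is no more than the 16.0% of S100a8-high cells at day 14, and the other 4 groups cleared that share. Every step from Aspn-high to Cnmd-high to Col10a1-high cells was larger than counting error.

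Ctsk (ENSMUSG00000028111, chr3:95499256-95509362, plus strand) had a UMI in 86.6% (interval 84.7% to 88.4%) of Aspn-high cells at day 10 and in 90.9% (89.8% to 91.9%) at day 14, with summed levels of 533 and 636 CPM. Rgs5-high cells had 67.7% and 58.7%, Ifitm5-high cells 52.0% and 55.9%, Cnmd-high cells 47.6% and 50.8%, and Col10a1-high cells 19.0% and 21.2%. At day 14 the last of these did not clear the 19.8% (12.7% to 28.7%) of S100a8-high cells. Osteoclast or macrophage genes were low in the same Aspn-high cells, where Acp5 stood at 24.4 and 25.6 CPM, Lyz2 at 6.23 and 14.4, Csf1r at 0.955 and 1.60, Cd68 at 1.01 and 0.994, and Ocstamp at 0.352 and 0.231 CPM.

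Lrrc15 (ENSMUSG00000052316, chr16:30269302-30283256, minus strand) was mainly a transcript of Aspn-high cells among the 5 groups. Its share was 38.6% (interval 36.0% to 41.4%, 500 of 1294) at day 10 and 40.2% (38.5% to 42.1%, 1167 of 2900) at day 14. Ifitm5-high cells were next with 13.3% (6.58% to 23.2%) and 8.05% (4.92% to 12.3%), and the remaining groups had at most 4.67%, that in 7 of 150 Rgs5-high cells. Outside the groups, cells high for none of the 5 genes had it in 16.6% (15.0% to 18.4%, 301 of 1808) at day 10. Only the Aspn-high share cleared the 1.89% (0.229% to 6.65%) of S100a8-high cells. The summed level of Lrrc15 in Aspn-high cells was 173 and 166 CPM, against 2.21 and 2.13 CPM in Cnmd-high cells.

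Set side by side, the 10 genes did not share a group. At day 10, 3 members (Cd34, Ctsk, and Lrrc15) had their highest share in Aspn-high cells, where 21.8% of 13539 genes found in at least 1% of the cells of a group also had theirs. Ly6a, Thy1, Eng, and Prrx1 were highest in Rgs5-high cells, as were 37.2% of genes, Cd200 and Lepr in Ifitm5-high cells (16.0% of genes), and Nt5e in Col10a1-high cells (16.4% of genes). No member was highest in Cnmd-high cells, where 8.69% of genes were. At day 14, Ly6a was added to the Aspn-high set, which made 4 against 23.8% of genes, and Nt5e was highest in Cnmd-high cells (10.0% of genes). The 3 left in Rgs5-high cells compare with 40.3% of genes, the 2 in Ifitm5-high cells with 12.1%, and the 0 in Col10a1-high cells with 13.9%. For 6 members at day 10 and 7 at day 14 the interval of the highest share was clear of the next group's. Only Ly6a and Nt5e had different highest groups on the 2 days. For Ly6a at day 10 and Nt5e on both days, the highest share was not clear of the next group's.

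By summed level, more members stood over 2-fold higher in Aspn-high cells than stood lower. Against Cnmd-high cells, 5 of 8 members with at least 10 CPM were higher at day 10 and 1 lower, where 15.2% of all genes were higher and 4.97% lower. At day 14 the counts were 6 and 1 of 9 (16.0% and 5.24% of genes). Against Col10a1-high cells they were 6 and 2 of 8 (17.1% and 8.10%), then 7 and 1 of 9 (18.4% and 7.37%). Against Ifitm5-high cells they were 6 and 3 of 9 (20.9% and 5.32%), then 7 and 2 of 10 (19.7% and 5.44%). Against Rgs5-high cells they were 3 and 2 of 8 (10.9% and 12.0%), then 5 and 2 of 9 (10.7% and 12.4%). The members lower in Aspn-high cells were Nt5e against Cnmd-high cells, Cd200 and, at day 10, Nt5e against Col10a1-high cells, these and Lepr against Ifitm5-high cells (Nt5e at day 10 only), and Thy1 and Eng against Rgs5-high cells. Since the genes had been picked as progenitor markers, their excess over the background describes the list and is not independent evidence.

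**Figure D2:**
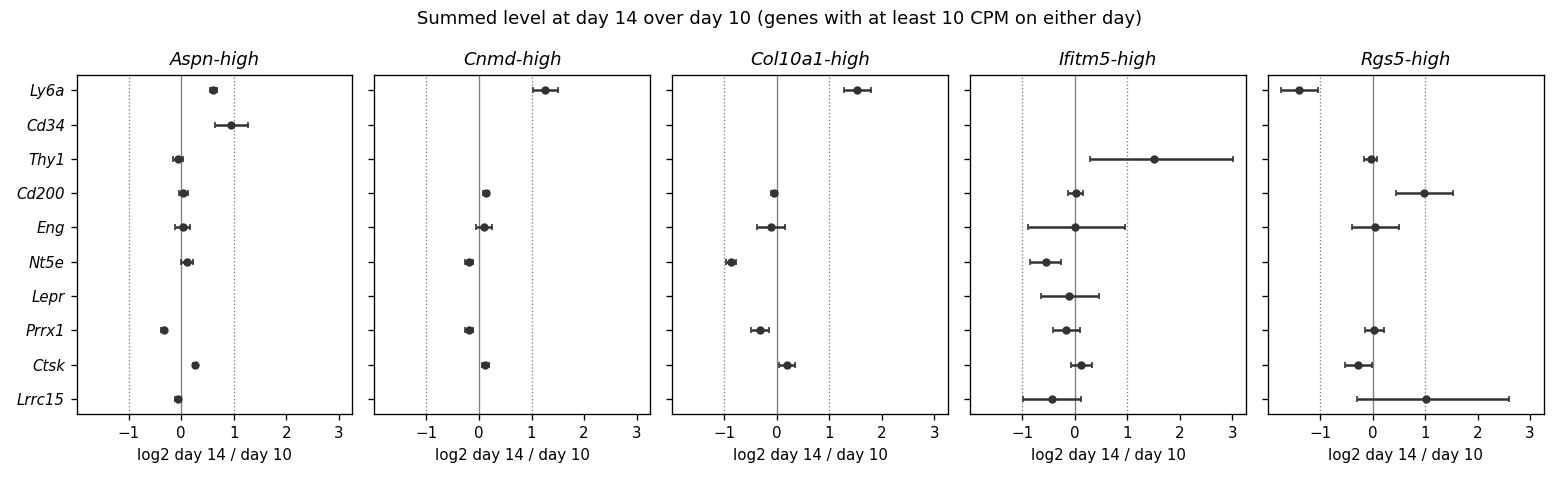
Log2 ratio of the summed level at day 14 over day 10 (x axis) for each marker with at least 10 CPM on either day, 1 panel per cell group; bars are 95% counting intervals, the solid line marks equal levels and the dotted lines a 2-fold difference. Ly6a lies at 1.26 in Cnmd-high, 1.53 in Col10a1-high, and -1.39 in Rgs5-high cells, while most other points lie between the dotted lines.

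Between day 10 and day 14, 1 member passed a 2-fold difference in each group but Aspn-high, Ly6a in Cnmd-high, Col10a1-high, and Rgs5-high cells and Thy1 in Ifitm5-high cells. In Aspn-high cells none of 9 members with at least 10 CPM differed 2-fold with an interval clear of 1, where 0.224% of 8020 genes were higher and 1.03% lower. Ctsk was 0.26 higher and Prrx1 0.33 lower on the log2 scale, while Thy1, Cd200, Eng, and Nt5e had intervals that include equal levels. Cd34 was at 5.28 and 10.2 CPM, a log2 ratio of 0.95 (interval 0.64 to 1.27).

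Ly6a differed in opposite directions in different groups. In Aspn-high cells it was 149 CPM (144 to 154) at day 10 and 228 CPM (224 to 233) at day 14, a log2 ratio of 0.62 (0.56 to 0.68). In Cnmd-high cells it was 5.52 and 13.3 CPM, a log2 ratio of 1.26 (1.02 to 1.51), where 0.465% of genes were higher and 0.832% lower by the same rule. In Col10a1-high cells it was 13.5 and 39.2 CPM, a log2 ratio of 1.53 (1.28 to 1.80), where 0.531% were higher and 0.845% lower. In Rgs5-high cells it was 180 and 68.5 CPM, a log2 ratio of -1.39 (-1.75 to -1.03), where 2.91% were higher and 2.63% lower. Over all Ptprc-negative cells the level was 52.1 CPM at day 10 and 105 CPM at day 14. Beside these values, the 5 neutrophil genes summed to 3.42 CPM in Aspn-high and 0.864 CPM in Col10a1-high cells at day 10 and to 202 and 299 CPM at day 14. In Cnmd-high cells they summed to 1.44 and 29.4 CPM, and in Rgs5-high cells, where Ly6a was lower at day 14, to 7.14 and 27.9 CPM. S100a8-high cells themselves held 33.9 CPM of Ly6a. The part of such RNA in the Ly6a values was not tested.

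Further differences were smaller or rested on few UMIs. Nt5e in Col10a1-high cells was 148 and 81.2 CPM, a log2 ratio of -0.87 (-0.96 to -0.77). Thy1 in Ifitm5-high cells came from 6 UMIs at day 10 and 49 at day 14, with a log2 ratio of 1.51 (0.28 to 3.02), where 1.23% of genes were higher and 2.10% lower. Its share at day 14 did not clear that of S100a8-high cells. Cd200 in Rgs5-high cells stood at 45.2 and 88.8 CPM, a log2 ratio of 0.97 (0.45 to 1.53), and its share at day 14 did not clear that of S100a8-high cells.

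The panel was next read within single cells. An Aspn-high cell held a UMI of 3.05 of the 10 members on average at day 10 and of 3.29 at day 14, and at most 8. Rgs5-high cells were close to this with 3.31 and 3.23, Ifitm5-high cells had 2.40 and 2.38, Cnmd-high cells 1.72 and 1.74, and Col10a1-high cells 1.61 and 1.56. At least 5 members were found in 12.1% (interval 10.4% to 14.0%) and 16.9% (15.5% to 18.3%) of Aspn-high cells and in 0.818% or less of Cnmd-high and Col10a1-high cells. Rgs5-high cells, at 9.68% (3.63% to 19.9%) and 14.0% (8.88% to 20.6%), were not apart from Aspn-high cells in this. Ifitm5-high cells had 4.0% and 5.08%. At least 3 members were found in 66.0% and 71.7% of Aspn-high cells and in 83.9% and 75.3% of Rgs5-high cells. Cells with none of the 10 made up 0.696% and 0.276% of Aspn-high and 0% and 0.667% of Rgs5-high cells, against 13.1% and 11% of Cnmd-high cells. A missing UMI at this depth, where 1 UMI equals 200 CPM, does not show that a transcript was absent.

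**Figure D3:**
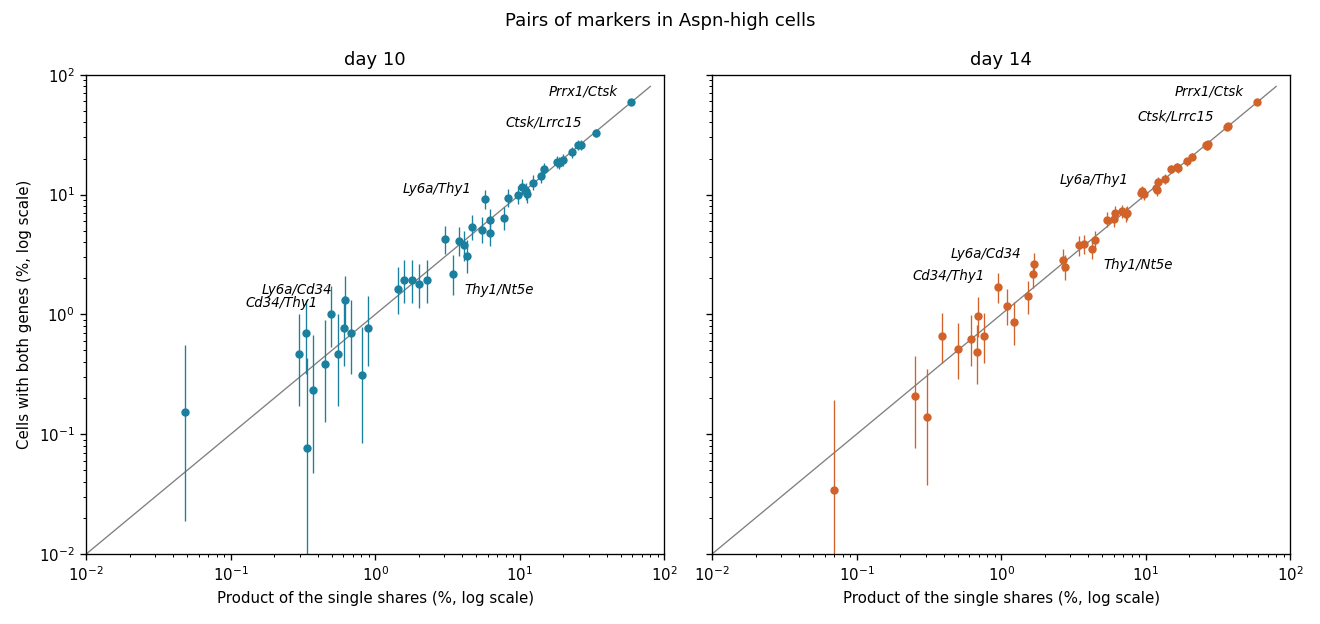
Share of Aspn-high cells with a UMI of both genes of a pair (percent, log scale, y axis) against the product of the 2 single shares (percent, log scale, x axis) for the 45 pairs at day 10 and day 14; bars are 95% counting intervals and the line marks equality. Most pairs lie on the line, with Ly6a/Cd34, Cd34/Thy1, and Ly6a/Thy1 above it and Thy1/Nt5e below it.

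If 2 genes were spread over Aspn-high cells without regard to each other, the share of cells with both would equal the product of their shares. For most of the 45 pairs this was nearly so. Prrx1 and Ctsk, for example, were found together in 59.0% and 59.2% of Aspn-high cells, against products of 59.2% and 59.0%. Ctsk and Lrrc15 were together in 32.8% and 36.8%, against 33.5% and 36.6%.

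Ly6a and Cd34 were together more often than their product. They shared 17 of 1294 Aspn-high cells at day 10 (1.31%, interval 0.767% to 2.10%, product 0.618%) and 76 of 2900 at day 14 (2.62%, 2.07% to 3.27%, product 1.69%). Of the cells with Cd34, 56.7% and 63.3% also had Ly6a, while of those with Ly6a 4.93% and 6.41% had Cd34. Cd34 and Thy1 were together in 13 cells at day 10, against 6.42 from the product, and in 49 at day 14, against 27.7. Ly6a and Thy1 were together in 9.12% of cells (interval 7.61% to 10.8%), against 5.71% at day 10, and in 10.7% (9.59% to 11.9%) against 9.44% at day 14. For all 3 pairs the interval lay above the product on both days. Among the 45 pairs, only Ly6a with Cd34 was a planned summary. No background from pairs of other genes was computed.

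Nt5e went the other way. Thy1 and Nt5e were together in 2.16% of Aspn-high cells at day 10, against a product of 3.44%, and in 3.52% at day 14, against 4.22%, with ratios of 0.629 and 0.833, and only at day 10 did the interval (1.44% to 3.11%) leave out the product. Ly6a and Nt5e had ratios of 0.721 and 0.942, and Nt5e and Lrrc15 of 0.771 and 0.928. Nt5e and Cd200 stood slightly above their product, with ratios of 1.14 on both days and intervals that contain it. Lepr was too sparse to read, since it met Cd34 in 2 and 1 cells and Nt5e in 1 and 4. The cells of a group came from 1 library and differ in type within the group, so these ratios describe these cells only.

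**Figure D4:**
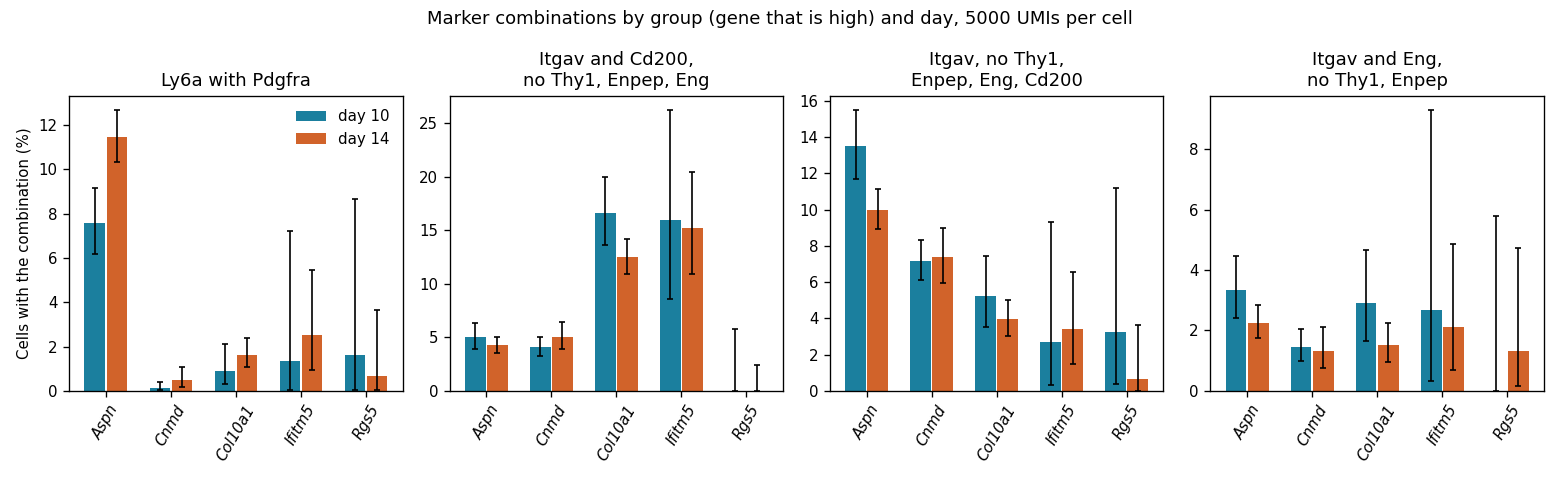
Share of cells (percent, y axis) with the marker combination named above each panel, by cell group (x axis) at day 10 and day 14, 5000 UMIs per cell; bars are 95% counting intervals and each panel has its own y scale. Ly6a with Pdgfra is highest in Aspn-high cells (7.57% and 11.5%), and Itgav with Cd200 without Thy1, Enpep, and Eng is highest in Col10a1- and Ifitm5-high cells (12.5% to 16.6%).

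Marker combinations used for sorting fell on different groups. Ly6a with Pdgfra, the receptor chain paired with SCA1 in sorts, was found in 7.57% (interval 6.19% to 9.15%) of Aspn-high cells at day 10 and in 11.5% (10.3% to 12.7%) at day 14, and in 2.54% or less of every other group. Itgav with Cd200 and without Thy1, Enpep, and Eng, the RNA counterpart of the sorted stem cell, was found in 16.6% (13.6% to 20%) and 12.5% (10.9% to 14.2%) of Col10a1-high cells and in 16.0% (8.55% to 26.3%) and 15.3% (10.9% to 20.5%) of Ifitm5-high cells. Aspn-high cells showed this combination in 5.02% and 4.28%, Cnmd-high cells in 4.08% and 5.07%, and Rgs5-high cells in 0 of 62 and 0 of 150, with intervals that reach 5.78% and 2.43%. Cd200 alone was in 75.6% or more of Col10a1- and Ifitm5-high cells and in 29.1% and 29.7% of Aspn-high cells. The combination was not set against a product of single shares, so its order may restate that of Cd200.

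The combinations named for its progeny were placed otherwise. Itgav without Thy1, Enpep, Eng, and Cd200 was most frequent in Aspn-high cells, at 13.5% (11.7% to 15.5%) and 10.0% (8.93% to 11.1%). Itgav with Eng and without Thy1 and Enpep was found in 3.32% and 2.24% of Aspn-high cells and in 2.89% or less of the others. Lepr with Cxcl12, the marrow stroma pair, was in 9 and 25 Aspn-high cells, in 1 Col10a1-high cell at day 10, in 1 Ifitm5-high cell at day 14, and in no other cell of the 5 groups. Over all Ptprc-negative cells, in or out of a group, 25 and 47 had this pair. Because these combinations require missing UMIs, which a shallow cell also has, they are counts of transcripts and not of sorted populations.

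**Figure D5:**
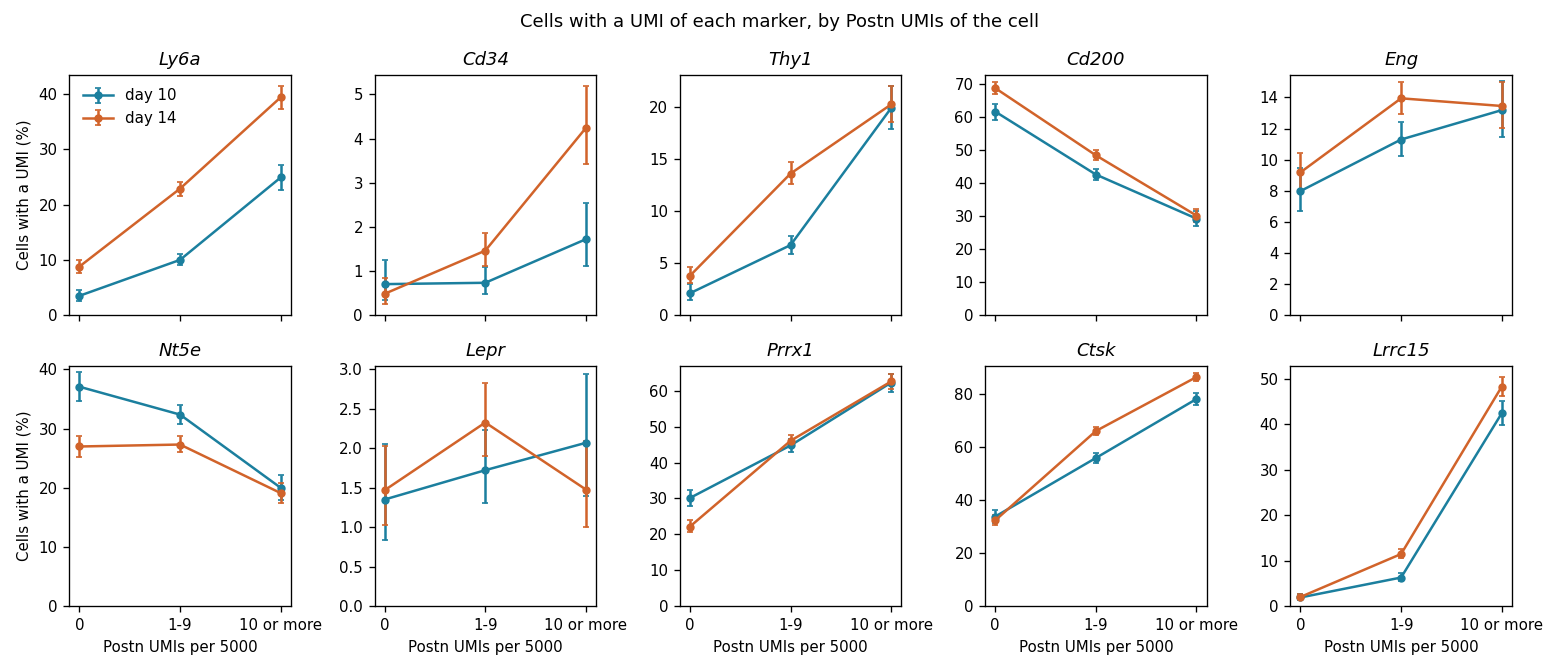
Share of Ptprc-negative cells with a UMI (percent, y axis) of each marker in cells with 0, 1 to 9, or at least 10 Postn UMIs per 5000 (x axis) at day 10 and day 14; bars are 95% counting intervals and each gene has its own y scale. Lrrc15, Ctsk, Prrx1, Ly6a, and Thy1 go up with Postn on both days, and Cd200 goes down from 61.6% to 29.3% and from 68.7% to 30.2%.

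The study is about cells with periostin (Postn), a matrix protein of periosteum, so the members were read over all Ptprc-negative cells by their Postn UMIs. Lrrc15 had the largest ratio between the outer sets among the 10 members. At day 10 it was in 1.93% of 1553 cells without Postn, in 6.31% of 3249 with 1 to 9 UMIs, and in 42.4% of 1449 with at least 10, and at day 14 in 2.04%, 11.5%, and 48.2%. Ctsk followed the same order, with a larger difference in percentage points, at 33.9%, 56.0%, and 78.3% at day 10 and 32.4%, 66.2%, and 86.6% at day 14. Ly6a went from 3.54% to 10.0% and 24.9% at day 10 and from 8.82% to 22.9% and 39.4% at day 14, and Thy1 from 2.12% to 6.74% and 19.9%, then from 3.80% to 13.6% and 20.2%.

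Cd200 ran against Postn. It was in 61.6%, 42.6%, and 29.3% of cells with 0, 1 to 9, and at least 10 Postn UMIs at day 10, and in 68.7%, 48.4%, and 30.2% at day 14. Nt5e was in 37.1%, 32.4%, and 20% at day 10. At day 14 Nt5e was in 27.0%, 27.3%, and 19.1%, with no order between the first 2 sets. All 3 lay within the S100a8-high interval of 16.7% to 33.8%, which is not taken as a background for Nt5e. Lepr had no order, between 1.35% and 2.33% in all 6 sets. Within Aspn-high cells alone, most of these gradients were smaller, absent, or ran the other way. There, cells with at least 10 and with 1 to 9 Postn UMIs had Ctsk in 85.3% and 89.2% at day 10 and 90.5% and 91.4% at day 14, and Ly6a in 27.4% and 24.7%, then 40.0% and 41.9%. Lrrc15 still differed within them, at 49.6% (interval 46.2% to 53.0%) and 17.1% (13.6% to 21.1%) at day 10 and 53.3% (50.8% to 55.7%) and 24.2% (21.8% to 26.7%) at day 14. Cd200 stood within them at 26.6% (23.7% to 29.7%) and 33.3% (28.7% to 38.0%) at day 10, with intervals that overlap. At day 14 it stood at 26.4% (24.3% to 28.6%) and 33.5% (30.8% to 36.2%).

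Genes that went with each member inside the Aspn-high group were ranked by the smaller of the 2 days' ratios between cells with and without a UMI of it, in UMIs after thinning. Cells were chosen by a UMI of the member and genes by their ratio, so these values describe the ranking and carry no test. Of the 50 genes so named, 25 were named again when the cells were thinned with another random draw, and the following are among those. With Cd34 went the fibroblast genes Clec3b and Scara5, and Cygb, Mgst1, and Pthlh. Clec3b was in 17 of 120 Cd34-positive Aspn-high cells at day 14 and in 38 of 2780 others, with a log2 ratio of 4.02 (3.49 to 4.54), and at day 10 in 3 of 30 and 3 of 1264. Cygb was in 9 of 30 and 53 of 1264 at day 10, with a log2 ratio of 4.22, and in 15 of 120 and 88 of 2780 at day 14, with 2.28.

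With Ly6a went its neighbor and paralog Ly6c1, whose reads can be hard to tell from those of Ly6a, the interferon-stimulated gene Ifi27l2a, the mitotic gene Birc5, and the basement membrane collagen Col18a1. Ifi27l2a was at 329 CPM in Ly6a-positive and 164 CPM in other Aspn-high cells at day 10, and at 50.6 and 16.3 CPM at day 14. Col18a1 stood at 166 and 54.6 CPM at day 10 and at 98.6 and 48.0 CPM at day 14. Thy1 was joined by Col4a2, another basement membrane collagen, with log2 ratios of 1.38 and 1.84, and by Cygb. Contractile genes went with Lrrc15. Acta2 (smooth muscle actin) was at 1162 CPM in Lrrc15-positive and 505 CPM in other Aspn-high cells at day 10 and at 784 and 307 CPM at day 14, Actg2 had log2 ratios of 1.41 and 1.72, and Cnn1 (calponin) of 1.47 and 1.80.

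With Nt5e went Frzb and Pcolce2, an inhibitor of Wnt and an enhancer of procollagen processing, and Lbp. Frzb stood at 61.5 and 29.7 CPM at day 10 and at 55.1 and 23.2 CPM at day 14 in Aspn-high cells with and without Nt5e. Lepr was joined by Igf2, at 578 and 77.3 CPM at day 10 and 224 and 42.0 CPM at day 14, and by the hedgehog-binding protein gene Hhip, on 27 and 49 Lepr-positive cells. Ctsk went with the matrix genes Mfap4 and Cilp2, and Prrx1 with Apoe, Col4a1, and Wnt16. For Cd200 only Eln (elastin) was found in both draws, and for Eng none of the 5.

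Across the 10 sums of the 5 groups at 2 days, the genes whose levels followed each member most closely were found by Pearson's r of log2(CPM + 10) over 4038 genes. These are descriptions over 10 points that share 2 libraries. Thy1 was most like Col18a1 (r = 0.993), Pdlim1, and Fam129a, and Eng was most like Il1r1 (r = 0.991), Ppp3cb, and Stmn1. Prrx1 was followed by Ptms (r = 0.995) and by the mesenchymal filament gene Vim, Ctsk by Rnase4 (r = 0.987) and the collagen receptor gene Mrc2, and Lrrc15 by Timp2 (r = 0.981), Arf5, and the collagen-binding integrin gene Itga11. Lepr was most like Robo2 (r = 0.991), Entpd3, and Hhip, and Cd200 was most like the BMP pseudoreceptor gene Bambi (r = 0.975), Tmie, and Ptgis. Nt5e followed Slc39a14 (r = 0.992), Ly6a followed Atp6ap2 (r = 0.978), and Cd34 followed Ccn3 (r = 0.983). Among the members themselves, Thy1 and Nt5e ran most opposite (r = -0.986) and Thy1 and Eng most alike (r = 0.940).

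The levels of 19 other stem or progenitor markers were read in the same way. Against Cnmd-high cells, 9 of the 14 with at least 10 CPM were over 2-fold higher in Aspn-high cells at day 10 and 2 lower, where 15.2% and 4.97% of all genes were. At day 14 the counts were 7 and 2 of 13, against 16.0% and 5.24% of all genes. Against Col10a1-high cells they were 9 and 2 of 14 (17.1% and 8.10%), then 7 and 2 of 12 (18.4% and 7.37%). Against Ifitm5-high cells they were 8 and 1 of 14 (20.9% and 5.32%), then 6 and 1 of 12 (19.7% and 5.44%). Against Rgs5-high cells more were lower than higher. There 6 were higher and 9 lower of 18 at day 10 (10.9% and 12.0%), and 6 and 8 of 16 at day 14 (10.7% and 12.4%). Cxcl12 was in 28.6% and 31.5% of Aspn-high cells and in at most 11.3% of any other group, and Dpt, a fibroblast matrix gene, in 8.58% and 11.6%, against at most 6.00%. Pdgfra was in 26.5% and 26.1% of Aspn-high cells, but Ifitm5-high cells had it in 38.7% and 32.6%. Gli1, the hedgehog target used to trace periosteal stem cells, was in 6.26% and 6.55% of Aspn-high, 5.39% and 4.82% of Cnmd-high, and 4.0% and 9.32% of Ifitm5-high cells. Rgs5-high cells held the highest shares of Pdgfrb (83.9% and 85.3%), Mcam (75.8% and 64.7%), Nes (33.9% and 26.7%), and Enpep (21% and 16.0%). Sox9, a chondrocyte factor, was highest in Cnmd-high cells with 85.1% and 79.4%, and was also in 54.3% and 50.5% of Aspn-high cells. From day 10 to day 14 in Aspn-high cells, 2 of the 14 measured were 2-fold lower, Grem1 at 23.6 and 9.25 CPM and Pthlh at 16.6 and 6.64 CPM, and none was higher, where 1.03% of all genes were lower and 0.224% higher.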

How the data were processed

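Cells from callus at day 7, 10, and 14 after fracture, 1 library each, were measured by droplet 3' sequencing. The authors aligned the reads to the mouse genome and collapsed UMIs with Cell Ranger (the matrix headers give version 3.1.0 and the submitters' notes 3.0, while the methods name another), and deposited the raw UMI counts, not normalized, for 9103, 8801, and 12984 barcodes at the 3 days. Positions are from GENCODE M21 (GRCm38), which holds 32158 of the 32285 gene identifiers.

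The limits on genes and on mitochondrial and hemoglobin UMIs followed the study's methods. Cells under 5000 UMIs were left out (214, 336, and 837 at days 7, 10, and 14). Thinning drew UMIs without replacement. Doublets were treated by the gene limit and by leaving out cells high for more than 1 of the 5 genes, since Scrublet (in scanpy 1.11.5) called 3 cells in each of the day 10 and day 14 libraries and so had not worked. Levels are CPM of unthinned UMIs summed over the cells of a group. A gene was called past 2-fold when its ratio was at least 2 and the interval left out 1, among genes with at least 10 CPM in either sum. Python 3.11.15, numpy 2.4.6, scipy 1.17.1, pandas 2.3.3, and matplotlib 3.10.9 were used, and the scripts were tested on simulated data. Cells are not replicates, so no p-value is given. 

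Members, cell limits, and gene lists were chosen with earlier results of these data known. The text names the 10 members, the 5 genes that define the groups, Postn, markers of cell types, 20 other progenitor markers (Mx1 was not matched, which left 19), the 3 genes most like each member, and the 5 genes that went most with each member within Aspn-high cells. Alternatives were other depths (2000 and 10000 UMIs), a second draw, an exact expected share, limits of 5 and 20 UMIs, cells high for several genes kept, no upper gene limit, any Ptprc count, Scrublet calls, a mitochondrial limit of 5%, CPM without the 20 most abundant genes, and filters of none or 50 CPM. Leaving out barcodes shared by libraries was added after seeing the data.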

Additional observations from a re-analysis of the deposited data

Results flagged for a closer look

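The day 14 over day 10 log2 ratio of Ly6a had opposite signs in different groups, each with an interval clear of equal levels. It was 0.62 in Aspn-high, 1.26 in Cnmd-high, and 1.53 in Col10a1-high cells, and -1.39 in Rgs5-high cells. The difference between groups was not tested, since each day is 1 library. The Rgs5-high value came from 151 UMIs in 62 cells at day 10 and 118 UMIs in 150 cells at day 14, and at day 14 the Cnmd-high, Col10a1-high, and Rgs5-high shares of cells with Ly6a did not clear that of S100a8-high cells.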

How the results depend on the processing

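No paired analysis was possible because each day is 1 library, and for the same reason no replicate could be left out. Of 47 day 14 over day 10 ratios, 21 had the other sign under at least 1 alternative, none of them among the 5 of at least 2-fold with an interval clear of equal levels (Lepr in Col10a1-high cells, under 10 CPM, included). Of the 21, 4 had an interval clear of equal levels, Lrrc15 in Aspn-high, Thy1 and Cd200 in Col10a1-high, and Nt5e in Ifitm5-high cells. Thy1 in Col10a1-high cells went from 0.94 to -0.76 and Ly6a in Ifitm5-high cells, with few UMIs, from 1.18 to -0.97. Depth moved detection most. At 2000 and 10000 UMIs per cell 78 and 70 of 100 shares moved beyond their intervals, against 9 with a second random draw and none without barcodes shared by libraries. Aspn-high cells held 1.79 and 1.91 members on average at days 10 and 14 with 2000 UMIs and 4.11 and 4.35 with 10000. Ly6a and Cd34 were together in 0.804% of Aspn-high cells at day 14 with 2000 UMIs, and in 2.44% and 5.16% at days 10 and 14 with 10000. With limits of 20 UMIs for the group genes they were together in 0.652% at day 10, and the members per cell at day 14 were 3.36. With limits of 5 UMIs, 7 members had their highest share in Aspn-high cells at day 10, because Rgs5-high cells, 37 in number, fell under the minimum of 50 cells that this count required. With cells high for several genes kept, the members per cell at day 10 were 2.93.

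The group with the highest share of any size was the same under all 12 alternatives for 9 members at day 10 and all 10 at day 14. Nt5e at day 10 was highest in Cnmd-high cells with 10000 UMIs (49.5%) and with limits of 5 UMIs (35.2%). The day 14 over day 10 log2 ratio of Ly6a ranged from 0.50 to 0.93 in Aspn-high, 0.95 to 1.78 in Cnmd-high, 1.16 to 1.81 in Col10a1-high, and -2.56 to -1.13 in Rgs5-high cells, and in Cnmd-high cells it was under 2-fold with limits of 5 UMIs. Thy1 in Ifitm5-high cells ranged from 0.72 to 1.85. The causes were not tested.

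Without a filter on low values, the genes past 2-fold between days numbered 866, 776, 706, 485, and 538 in Aspn-, Cnmd-, Col10a1-, Ifitm5-, and Rgs5-high cells, and with at least 50 CPM 22, 45, 29, 40, and 89, against 101, 92, 101, 233, and 459 at 10 CPM. With limits of 20 UMIs Ifitm5-high cells had 352. Groups of 75 and 62 cells at day 10 set the widest intervals.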
